A study of Homo sapiens with 6 samples.

Results

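The genes described here encode the aminoacyl-tRNA synthetases, the enzymes that join each amino acid to its tRNA, with AIMP1 and AIMP2, which hold several of them in a complex. They were taken from the deposited gene table as protein-coding genes whose symbol ends in ARS1 or ARS2 after 1 or 2 letters, with EPRS1, FARSA, FARSB, AIMP1 and AIMP2 added by name. Gene coordinates are on hg38. Of the 30270 genes deposited, 37 are reported here, and all 37 had enough counts to be tested. They comprise 21 cytosolic genes (19 enzymes and the 2 scaffold genes) and 16 mitochondrial genes. The data were estimated counts per gene from total RNA depleted of rRNA, in 3 WT libraries and 3 libraries labelled ΔTUT4/7, all from HEK 293T cells, an embryonic kidney line that carries the SV40 large T antigen. ΔTUT4/7 is the study's name for the double knockout of TENT3A/B (TUT4 and TUT7), the uridylyltransferases that mark RNA 3′ ends for decay or processing. The knockout line came from earlier work, the labels list no treatment for either group, and how many clones it stands for is not given in the sources used here. The study obtained HEK 293T cells from ATCC and received the knockout cells as a gift. Whether the WT cells are the parent of the knockout line is not stated, so knockout and origin of the line cannot be told apart. The labels call the 3 libraries of each group biological replicates.

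Each amino acid needs its own synthetase in the cytosol, where nuclear mRNAs are translated, and again in the mitochondrial matrix, where the few proteins encoded by mitochondrial DNA are made. Most mitochondrial enzymes have a nuclear gene of their own with a final 2 in the symbol, whereas GARS1 and KARS1 supply both compartments from a single gene, and no mitochondrial glutamine enzyme is listed because that tRNA is charged with glutamate and then amidated. ATF4, the transcription factor of the integrated stress response, is known to raise many cytosolic synthetases when amino acids run short, by binding C/EBP-ATF response elements together with C/EBP proteins.

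Promoter sequence is shown first, because the cytosolic genes below divide along a list of enzymes often given as ATF4 targets. RefSeq windows on GRCh38.p14 from 250 bases before to 50 bases after the start were matched for 32 of the 37 genes, in 44 windows. LARS1, YARS1, VARS1, VARS2 and AARS2 had none. The letters TGATGNAA, a core of the C/EBP-ATF response element chosen after the fold changes had been seen, were searched on both strands. They occurred in 7 of the 10 enzymes of the ATF4 list that had a window, in 0 of 6 other cytosolic enzymes, in 1 of 14 mitochondrial enzymes and in 0 of the 2 scaffold genes. Across all genes with a window 4.46% held a match, and across all 35116 windows 3.62% did. The stretch of 60 bases around each match reads 5′ to 3′ on the strand of the gene, with the match in capitals.
CARS1, chr11:3057392-3057451, minus strand: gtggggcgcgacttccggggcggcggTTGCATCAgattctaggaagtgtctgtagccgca
GARS1, chr7:30594819-30594878, plus strand: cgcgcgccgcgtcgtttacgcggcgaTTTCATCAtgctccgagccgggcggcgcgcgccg
IARS1, chr9:92293677-92293736, minus strand: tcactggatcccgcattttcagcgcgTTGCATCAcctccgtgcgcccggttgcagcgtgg
AARS1, chr16:70289660-70289719, minus strand: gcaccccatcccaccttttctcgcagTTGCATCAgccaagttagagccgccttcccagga
MARS1, chr12:57488038-57488097, plus strand: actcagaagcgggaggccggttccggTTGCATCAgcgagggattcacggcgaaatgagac
NARS1, chr18:57621789-57621848, minus strand: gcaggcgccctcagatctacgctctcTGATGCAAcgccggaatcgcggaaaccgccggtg
TARS1, chr5:33440941-33441000, plus strand: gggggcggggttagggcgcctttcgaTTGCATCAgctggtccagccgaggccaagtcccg
YARS2, chr12:32756061-32756120, minus strand: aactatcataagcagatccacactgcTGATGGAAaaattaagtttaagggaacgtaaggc
In 6 of the 8 genes the match lay after position 200 of the 300-base window, near the start. A match in these letters describes the sequence and is not a measured binding site. A list of ATF4 targets may itself rest partly on such promoter elements, and it was written with earlier results of these data known. Its share of matches is therefore no independent evidence. The first 4 genes listed fell in the libraries labelled ΔTUT4/7, MARS1 and NARS1 did not pass the test, and TARS1 and YARS2 rose, so holding the letters did not go with a single direction. SARS1 fell by the most among the cytosolic genes and had no match in its window.

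Library totals ran from 18757228 to 33148937 counts. TUT4 went against its label, as it read 212, 216 and 206 CPM (counts per 1e+06 of TMM-scaled library size) in the WT libraries and 882, 920.4 and 917 CPM in the others, a log2 fold change of 2.10 ± 0.04 (SE). TUT7 fell from 60.4, 62.6 and 64.8 CPM to 27.2, 25.2 and 26.5 CPM. A count per gene does not show whether a transcript is intact, so every direction below is that of the libraries labelled ΔTUT4/7. The 5 markers listed for the line were all detected, but VIM, an intermediate filament of mesenchymal cells that the line also makes, rose (1.33 ± 0.04, log2 scale), as did KRT18 (0.54 ± 0.06), while KRT8 (-1.54 ± 0.18), LHX1 (-0.98 ± 0.20) and PAX2 (-0.56 ± 0.23) fell. The fibroblast marker COL1A1 fell from 20.4 ± 1.57 to 7.45 ± 0.801 CPM, and ALB, of hepatocytes, was too low to test. The part of these shifts in the results below was not tested. In bulk RNA, fewer cells making a transcript and less of it per cell cannot be told apart.

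Of the 37 genes, 20 were higher and 9 were lower in the libraries labelled ΔTUT4/7 at FDR under 0.05 in edgeR's quasi-likelihood test, and 8 were not called. Among all 23952 genes tested 57.7% were called, 28.6% higher and 29.0% lower. Among the 15574 that averaged at least 50 counts, as all 37 did, 39.2% were higher and 31.7% lower. Cytosolic genes split almost evenly, 8 higher and 9 lower, with a median log2 fold change of -0.06, beside -0.02 over all genes tested. Of the 16 mitochondrial genes reported 12 were higher and 0 lower, with a median of 0.40. At an unadjusted p under 0.05 in edgeR 13 of these were higher and 0 lower, while DESeq2 called 10 and 0 and limma-voom 12 and 0. Without TMM factors, on library size alone, the splits were 6 higher against 11 lower for the cytosolic genes and 9 against 2 for the mitochondrial genes. At a change of 1.5-fold or more, 10 of the 37 were higher and 3 lower, beside 14.4% and 19.4% of all genes tested. Only AIMP2, LARS2 and YARS2 passed 2-fold, all upward, beside 5.90% of all genes higher and 12.4% lower at that size. The groups did not overlap for 19 genes that were higher and 11 that were lower, beside 30.9% and 31.8% of all genes tested (62.7% together).

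**Figure D1:**
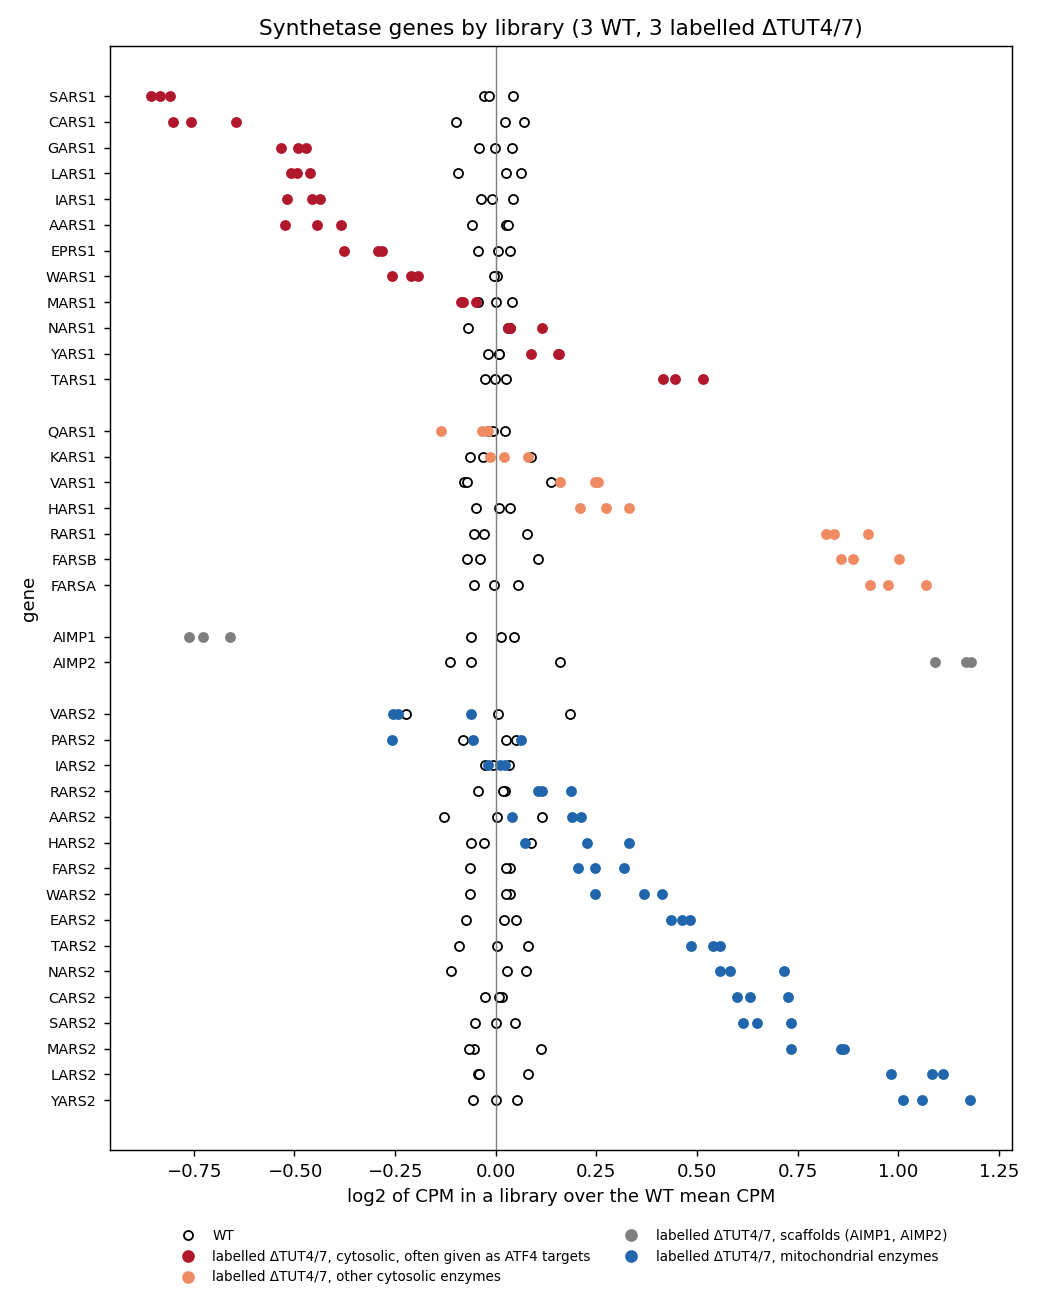
Each point is the log2 of a library's CPM over the WT mean for that gene, with open points for the 3 WT libraries and filled points for the 3 libraries labelled ΔTUT4/7, coloured by gene group. SARS1, CARS1 and AIMP1 lie furthest to the left, and FARSA, AIMP2, LARS2 and YARS2 furthest to the right.

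The cytosolic enzymes often given as ATF4 targets were mostly lower. Of these 12 genes, 8 fell, 2 rose and 2 were not called, with a median log2 fold change of -0.38. Of all genes averaging at least 50 counts, 31.7% were lower and 39.2% higher. The list was written with lower ATF4 targets in these data already known, so its direction is no independent evidence. SARS1, the seryl-tRNA synthetase (chromosome 1, 109213918 to 109238182, plus strand), read 267, 280.2 and 269 CPM in WT replicates 1, 2 and 3 and 155, 153 and 150.2 CPM in ΔTUT4/7. Every ΔTUT4/7 library lay far under every WT library, a log2 fold change of -0.83 ± 0.04 (adjusted p = 5.87e-13 in edgeR). CARS1, which charges cysteine (chromosome 11, 3000922 to 3057613, minus strand), read 95.1, 87.5 and 98.3 CPM in WT and 59.9, 53.8 and 55.5 CPM in ΔTUT4/7, -0.73 ± 0.06 on the log2 scale. These were the 2 members of the list that fell by 1.5-fold or more.

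GARS1, the glycyl enzyme of both compartments, fell by less, from 403, 415 and 392 CPM in the WT libraries to 287, 291 and 279 CPM, a log2 fold change of -0.50 ± 0.04. The leucyl enzyme LARS1 read 543, 589.7 and 605 CPM in WT and 407, 411 and 421 CPM in ΔTUT4/7 (-0.49 ± 0.05). IARS1, for isoleucine, read 925, 978 and 942 CPM and 691, 663 and 701 CPM (-0.47 ± 0.04). In all 3 the groups stood apart without overlap, at a drop of about the same size. AARS1, the alanyl enzyme, went from 422, 398 and 423 CPM to 317, 288 and 304 CPM (-0.45 ± 0.05). EPRS1, a fused enzyme for glutamate and proline, went from 659, 696 and 683 CPM to 523, 559 and 555 CPM (-0.32 ± 0.04). WARS1, for tryptophan, went from 135, 136 and 135 CPM to 118, 113 and 117 CPM (-0.22 ± 0.04), the smallest of the called decreases.

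The remaining 4 genes of that list were not called lower. TARS1, for threonine, rose from 382 ± 6.95 CPM (SD, n = 3) to 524 ± 18.6 CPM, 0.46 ± 0.04 on the log2 scale. YARS1, for tyrosine, rose by 0.13 ± 0.04 (adjusted p = 0.00909 in edgeR), a call lost under library size or upper-quartile scaling, among genes averaging at least 50 counts, and without ΔTUT4/7 replicate 1 or 3. MARS1, for methionine, was at -0.07 ± 0.04 and NARS1, for asparagine, at 0.06 ± 0.05, and neither passed the test. Their 95% intervals, from the SE, ran from -0.15 to 0.01 and from -0.03 to 0.15. Under library size or upper-quartile scaling, among genes averaging at least 50 counts, and with the GC and length offset, MARS1 and the glutamine enzyme gene QARS1 were called lower.

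The 7 other cytosolic enzymes reported showed the opposite balance, 5 higher and 0 lower, with a median log2 fold change of 0.27. Taking an unadjusted p under 0.05 in edgeR, or DESeq2 or limma-voom calls, also gave 5 and 0. FARSA (chromosome 19, 12922479 to 12934037, minus strand) encodes the alpha subunit of the phenylalanyl enzyme and read 94.8, 87.8 and 91.0 CPM in WT and 191, 179 and 174 CPM in ΔTUT4/7. FARSB (chromosome 2, 222566899 to 222656092, minus strand), its beta subunit, read 68.2, 77.1 and 69.8 CPM and 133, 144 and 129.9 CPM. The subunits rose by nearly the same amount, 0.99 ± 0.05 for FARSA (adjusted p = 2.94e-13 in edgeR) and 0.91 ± 0.06 for FARSB. RARS1, for arginine (chromosome 5, 168486451 to 168519301, plus strand), read 106, 114 and 105 CPM in WT and 194, 206 and 192 CPM in ΔTUT4/7, 0.86 ± 0.05 with no overlap. Smaller increases were called for HARS1, for histidine (0.27 ± 0.05), and VARS1, for valine (0.22 ± 0.06, lost under library size or upper-quartile scaling and with the GC and length offset). QARS1, for glutamine, at -0.06 ± 0.05, and KARS1, for lysine, at 0.03 ± 0.05, did not pass. KARS1 read 123, 121 and 134 CPM in WT and 125, 128 and 133 CPM in ΔTUT4/7, with overlapping groups. Across the fits made, the ATF4 list had 8 to 9 lower and 1 to 2 higher and the other enzymes 4 to 5 higher and 0 to 1 lower. All fits used the same libraries. The 7 enzymes are those that the ATF4 list leaves, and it was written with lower targets known. This split is therefore no independent evidence. Of all genes averaging at least 50 counts, 39.2% were higher.

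The 2 scaffold genes went in opposite directions. AIMP2 (chromosome 7, 6009255 to 6023834, plus strand) read 15.4, 14.8 and 17.9 CPM in WT and 36.0, 36.3 and 34.1 CPM in ΔTUT4/7, with 1.14 ± 0.08 as its log2 fold change, the largest increase among the 37 genes. AIMP1 (chromosome 4, 106315544 to 106349456, plus strand), which is also the precursor of a secreted cytokine, read 96.0, 101 and 103 CPM and 60.5, 63.4 and 59.0 CPM, -0.72 ± 0.05. The multisynthetase complex, in which both proteins sit with several of the enzymes, therefore had members on either side. Of its 9 genes reported here 2 rose (RARS1 and AIMP2), 4 fell (EPRS1, IARS1, LARS1, AIMP1) and 3 were not called, with a median of -0.07. Among the 12 cytosolic genes outside the complex 6 rose and 5 fell, with a median of 0.10. Of all genes averaging at least 50 counts, 39.2% were higher and 31.7% lower. EEF1E1, the third scaffold of the complex, rose by 0.73 ± 0.06.

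Mitochondrial enzymes rose in 12 of the 16 cases reported, and 6 of them passed 1.5-fold. YARS2, for tyrosine (chromosome 12, 32727490 to 32755897, minus strand), read 23.8, 23.0 and 22.1 CPM in WT and 46.2, 51.9 and 47.9 CPM in ΔTUT4/7, with 1.08 ± 0.07 as its log2 fold change. LARS2, for leucine (chromosome 3, 45388561 to 45554726, plus strand), read 77.3, 71.0 and 71.1 CPM and 155, 144 and 158 CPM, 1.06 ± 0.05 (adjusted p = 1.84e-13 in edgeR). In both genes every ΔTUT4/7 library was far above every WT library. MARS2, for methionine (chromosome 2, 197705369 to 197708395, plus strand), read 14.2, 15.9 and 14.0 CPM in WT and 26.7, 26.6 and 24.4 CPM in ΔTUT4/7 (0.82 ± 0.08). SARS2, for serine (chromosome 19, 38915266 to 38930763, minus strand), read 14.6, 14.2 and 13.6 CPM and 23.5, 21.7 and 22.2 CPM (0.67 ± 0.08). These 2 were among the least abundant members, and their groups still did not overlap. CARS2, for cysteine (chromosome 13, 110641412 to 110713603, minus strand), read 21.3, 20.7 and 21.2 CPM in WT and 31.9, 32.6 and 34.8 CPM in ΔTUT4/7 (0.65 ± 0.07). NARS2, for asparagine (chromosome 11, 78435968 to 78574874, minus strand), read 29.7, 33.8 and 32.7 CPM and 47.2, 52.7 and 48.0 CPM (0.61 ± 0.07). Neither gene had overlapping groups.

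The other called increases were smaller. TARS2, for threonine, rose by 0.53 ± 0.06. EARS2, for glutamate, read 47.6, 50.8 and 51.8 CPM in WT and 67.7, 70.0 and 69.0 CPM in ΔTUT4/7 (0.46 ± 0.05). WARS2, for tryptophan, read 32.2, 32.0 and 30.1 CPM and 40.6, 41.9 and 37.3 CPM (0.35 ± 0.07). FARS2, for phenylalanine, HARS2, for histidine, and AARS2, for alanine, sat closest to the threshold. FARS2 was at 0.26 ± 0.10 (adjusted p = 0.0299 in edgeR), HARS2 at 0.21 ± 0.07 (0.0162) and AARS2 at 0.15 ± 0.06 (0.0429). AARS2 read 74.9, 63.3 and 69.3 CPM in WT and 80.1, 71.1 and 78.9 CPM in ΔTUT4/7, which overlap. DESeq2 called neither AARS2 nor FARS2. The calls of FARS2, HARS2 and AARS2 were all lost under library size or upper-quartile scaling and among genes averaging at least 50 counts. Each was also lost without at least 1 of the libraries.

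RARS2 (0.14 ± 0.06), IARS2 (0.00 ± 0.04), PARS2 (-0.07 ± 0.11) and VARS2 (-0.17 ± 0.09), for arginine, isoleucine, proline and valine, did not pass. IARS2 was called lower on library size, and with the GC and length offset PARS2 was called lower and RARS2 higher. VARS2 spread the most of all members in WT, with a coefficient of variation of 14.0%, and it was called lower under library size and upper-quartile scaling, among genes averaging at least 50 counts, with the GC and length offset and without WT replicate 2 (-0.27, adjusted p = 0.00473 in edgeR).

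Levels per length can be compared between genes, here as CPM per kilobase of the canonical transcript in GENCODE release 44. IARS1 was highest in WT at 212 ± 6.06 (SD, n = 3), followed by GARS1 at 165 ± 4.66 and YARS1 at 165 ± 1.92, which did not differ beyond their spread. TARS1, SARS1 and EPRS1 came next at 143, 142 and 139.8, again within their spread. In ΔTUT4/7 the order changed: TARS1 was highest at 196 ± 6.96, then YARS1 at 181 ± 4.92, and IARS1 stood at 153 ± 4.44. IARS2 was the highest of the mitochondrial genes reported, at 67.7 ± 1.43 in WT and 68.0 ± 0.988 in ΔTUT4/7, and read 238, 245 and 235 CPM and 236, 241 and 243 CPM by library, with overlapping groups. PARS2 and MARS2 were lowest in WT, at 4.76 and 4.85. The order depends on the length used. Over all annotated exons EPRS1 was highest in WT at 128 CPM per kilobase, and IARS2 was still the highest mitochondrial gene reported, at 57.8.

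**Figure D2:**
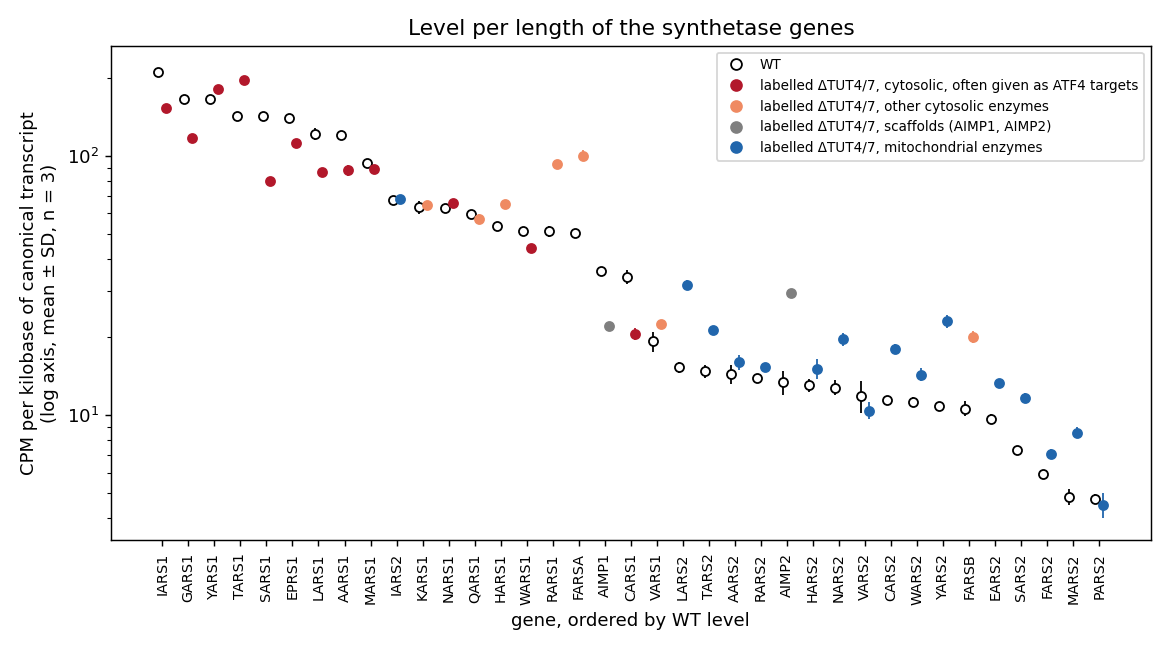
Points give the mean CPM per kilobase of canonical transcript on a log axis with the SD over 3 libraries, open for WT and filled for ΔTUT4/7, with genes ordered by their WT level. Cytosolic genes fill most of the upper range, IARS2 is the highest mitochondrial gene shown, and PARS2 is the lowest.

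Summed over its 12 genes, the ATF4 list made up 4747 ± 72.8 CPM in WT and 3957 ± 13.4 CPM in ΔTUT4/7 (-16.6%), whereas the 7 other cytosolic enzymes reported made up 727 ± 6.46 CPM and 1001 ± 4.63 CPM (37.7%). Each sum is led by its most abundant genes, and the split was made with earlier results of these data known.

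Pairing the genes by amino acid asks whether the 2 compartments moved apart. Of the 16 pairs reported, in which EPRS1 stands beside both EARS2 and PARS2, the ratio of cytosolic to mitochondrial counts was lower in ΔTUT4/7 in 12, with no overlap between groups in 10, and higher without overlap in 3. No share without overlap was computed for ratios of other genes, and among single genes tested 62.7% did not overlap. The median log2 change of the ratio was -0.56. The ratio is taken within a library and does not depend on scaling. LARS1 over LARS2 went from 7.94 ± 0.800 to 2.71 ± 0.117 (SD, n = 3), a log2 change of -1.55 ± 0.09. SARS1 over SARS2 went from 19.2 ± 0.879 to 6.80 ± 0.217 (-1.50 ± 0.05) and CARS1 over CARS2 from 4.45 ± 0.205 to 1.71 ± 0.151 (-1.38 ± 0.08). In these pairs, and in those of AARS1 with AARS2, EPRS1 with EARS2 and WARS1 with WARS2, the cytosolic gene was called lower and the mitochondrial gene higher. The ratio of YARS1 to YARS2 (-0.95 ± 0.08) and that of MARS1 to MARS2 (-0.89 ± 0.07) also fell, with the mitochondrial gene higher in each and the cytosolic gene higher by less (YARS1) or not called (MARS1).

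The ratio was higher without overlap for FARSA over FARS2 (0.73 ± 0.05), RARS1 over RARS2 (0.73 ± 0.03) and VARS1 over VARS2 (0.40 ± 0.09). The groups overlapped for TARS1 over TARS2, HARS1 over HARS2 and EPRS1 over PARS2. In the exact two-sided permutation test, 13 of the 16 pairs gave p = 0.1, the smallest that 3 against 3 libraries allow, and after Benjamini-Hochberg adjustment over the pairs the smallest was 0.123, so this test cannot pass 0.05 for any pair.

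**Figure D3:**
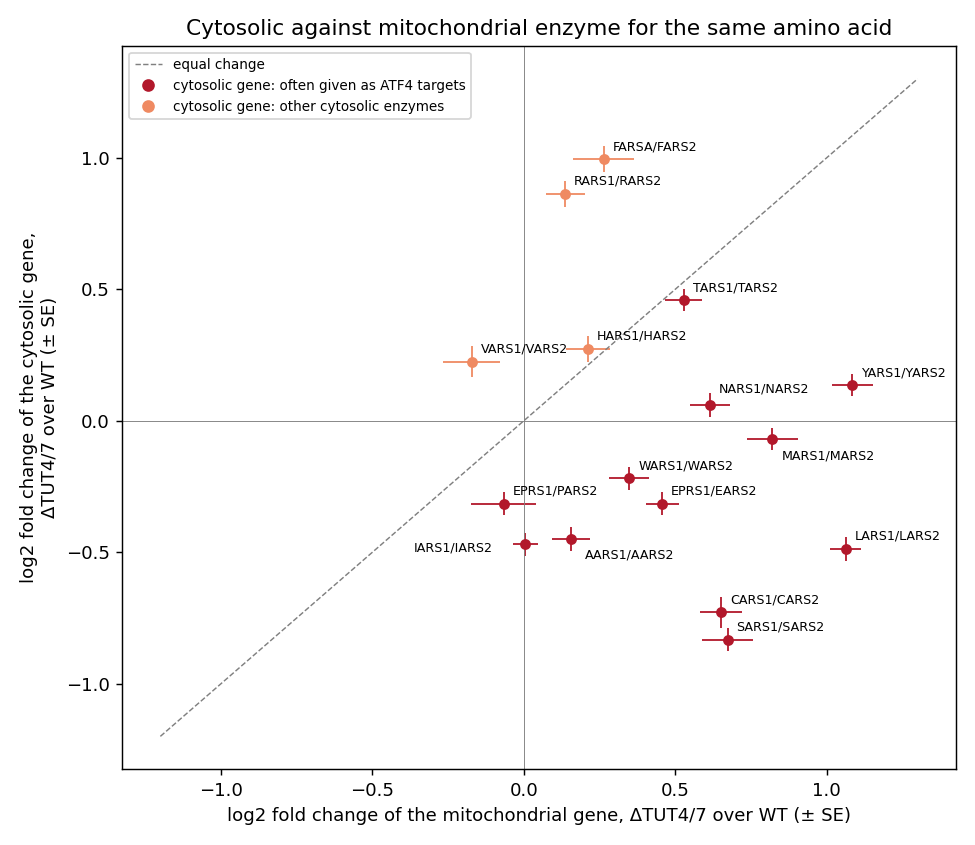
Each point is a pair of genes for 1 amino acid, with the log2 fold change of the mitochondrial gene on the horizontal axis and that of the cytosolic gene on the vertical axis, both ± SE. The 12 pairs below the dashed line of equal change had a lower cytosolic to mitochondrial ratio in ΔTUT4/7, and FARSA with FARS2 and RARS1 with RARS2 lie furthest above it.

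HARS1 and HARS2 are transcribed away from each other, and both rose. HARS1 (minus strand) read 106, 101 and 108 CPM in WT and 127, 121 and 132 CPM in ΔTUT4/7, and HARS2 (plus strand) read 30.8, 31.5 and 34.2 CPM and 37.7, 33.8 and 40.5 CPM. The log2 fold changes were 0.27 ± 0.05 and 0.21 ± 0.07, and the HARS2 groups overlapped. Their RefSeq starts lie 86 bases apart, first and last base included, and this shared stretch is printed on the plus strand.
HARS1 to HARS2 starts, chr5:140691370-140691455: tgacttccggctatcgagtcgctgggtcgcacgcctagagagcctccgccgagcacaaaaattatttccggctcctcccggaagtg
In the deposited table the 2 gene bodies overlap by 108 bases. Whether the counting used strand is not stated, so reads from overlapping genes on opposite strands cannot be told apart.

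Chromosomal neighbours moved with some members. For each gene the median log2 fold change of other genes within 5 Mb that averaged at least 50 counts was taken. CARS2 had neighbours at 1.04 (n = 29), above its own 0.65 ± 0.07, which left it at -0.39 relative to them. AIMP1 lay among neighbours at -0.60 (n = 39) and was at -0.11 relative to them. YARS1 turned from 0.13 to -0.28, and LARS2 from 1.06 to 0.54. QARS1 and KARS1, which were not called, lay among neighbours at 0.55 and -0.43. SARS1 (-0.04), FARSA (-0.03) and MARS2 (-0.03) had neighbours near 0. Subtracting the neighbours of each gene kept the sign of every pair ratio whose groups did not overlap. On the log2 scale CARS1 over CARS2 went from -1.38 to -0.56 and LARS1 over LARS2 from -1.55 to -1.10. RARS1 over RARS2 went from 0.73 to 0.32 and EPRS1 over EARS2 from -0.78 to -0.52. Others moved further from 0, such as WARS1 over WARS2, from -0.56 to -0.83. What part position has in these changes was not tested.

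**Figure D4:**
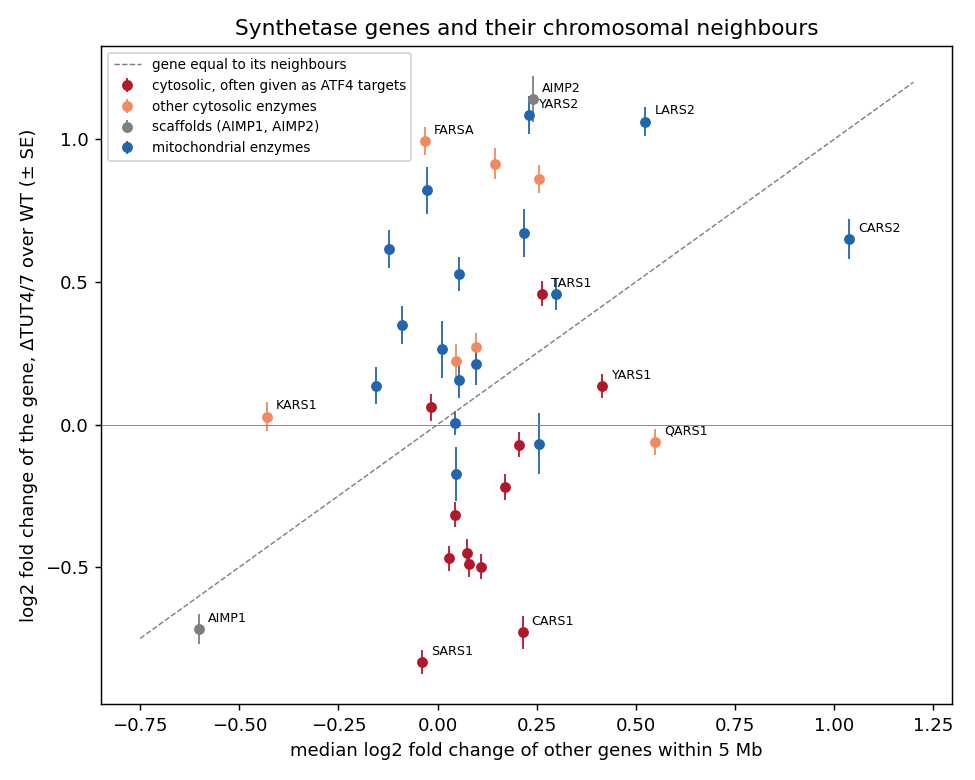
The horizontal axis gives the median log2 fold change of other genes within 5 Mb and the vertical axis that of the gene itself ± SE, coloured by group. CARS2 and QARS1 lie below the dashed line of equality at the right, AIMP1 lies near it at the left, and the neighbour medians run from -0.60 to 1.04.

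Several members share a start region or overlap with another gene, and those partners did not always move the same way. SARS2 starts 181 bases from MRPS12, a mitochondrial ribosomal protein gene, which rose by 1.57 ± 0.09. CARS2 faces ING1, a chromatin reader (1.16 ± 0.12), EARS2 faces UBFD1 (0.58 ± 0.05) and FARS2 faces LYRM4, of iron-sulphur cluster assembly (0.64 ± 0.10), all higher like the member. Partners moved the other way for AARS1, which faces the helicase gene DDX19B (0.47 ± 0.07), for AIMP2, which faces the mismatch repair gene PMS2 (-0.26 ± 0.06), for WARS1, which faces WDR25 (0.43 ± 0.14), and for WARS2, whose antisense lncRNA WARS2-AS1 fell (-0.64 ± 0.05). GARS1-DT, a lncRNA overlapping GARS1 by 14754 bases on the other strand, fell from 72.9 ± 1.90 CPM to 30.0 ± 1.06 CPM (-1.28 ± 0.06). AIMP1 overlaps TBCK by 1140 bases (-0.96 ± 0.10), and YARS2 overlaps DNM1L, of mitochondrial fission, by 18161 bases (0.52 ± 0.05). AIMP2 also overlaps EIF2AK1 by 1588 bases on the other strand (0.13 ± 0.04). In WT EIF2AK1 stood at 171 CPM and AIMP2 at 16.0 CPM. HARS1 overlaps WDR55 by 1090 bases (0.55 ± 0.06), and HARS2 overlaps ZMAT2 by 626 bases (0.50 ± 0.06). MARS1 overlaps the stress gene DDIT3 by 982 bases, RARS2 faces ORC3 (-0.25 ± 0.06), and KARS1 faces TERF2IP (-0.08 ± 0.06, not called). VARS2 lies along its whole length, 12255 bases, within the lncRNA AL669830.1 on the same strand (-0.50 ± 0.62, not called). MARS2 likewise lies, over 3027 bases, within the lncRNA AC011997.1 on the same strand, which averaged 3 counts in WT and was not tested. These values stand beside the members because reads shared across strands cannot be separated without strand. For overlaps on the same strand, such as those of VARS2 and of HARS2 with ZMAT2, strand would not separate them either. The part of shared reads in the results was not tested.

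Partner genes of tRNA charging were counted in the same way, beside 28.6% higher and 29.0% lower among all genes tested. For genes averaging at least 50 counts these shares were 39.2% and 31.7%. Of 6 mitochondrial partners 4 rose and 0 fell, with a median log2 fold change of 0.65. GATC, a subunit of the amidotransferase that makes mitochondrial glutaminyl-tRNA, read 81.6, 82.8 and 84.1 CPM in WT and 163, 168 and 162 CPM in ΔTUT4/7 (0.99 ± 0.05), though its neighbours were at 0.79. TSFM, a mitochondrial elongation factor, read 19.9, 22.6 and 18.7 CPM and 43.7, 44.2 and 41.7 CPM (1.09 ± 0.07). TUFM, its partner factor, read 159, 134 and 138 CPM and 242, 237 and 237 CPM (0.73 ± 0.06). These 3 had the smallest p of the partner list and separated fully between groups. QRSL1, also of the amidotransferase, rose by 0.57 ± 0.06, and GATB and MTFMT did not pass. Of 13 cytosolic partners 6 rose (EEF1E1, XPOT, EEF1D, DTD2, PSTK and AARSD1), 1 fell and 6 were not called. The gene that fell was SEPSECS, the last enzyme of selenocysteinyl-tRNA synthesis (-0.98 ± 0.09), while PSTK, the kinase before it, rose by 0.70 ± 0.13.

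ATF4 and genes it regulates that are no synthetases were mostly lower. Of these 33 genes, ATF4 included, 23 fell, 2 rose and 8 were not called, with a median of -0.47 and 16 falling by 1.5-fold or more. The number that rose was 4 with the replicate block, 5 without WT replicate 1, 4 without ΔTUT4/7 replicate 2 and 3 without ΔTUT4/7 replicate 3. It was 1 under library size or upper-quartile scaling, among genes averaging at least 50 counts, and with the GC and length offset. This list too was written with a lower ATF4 set known. Beside its counts, 29.0% of all genes tested were lower and 28.6% higher, and 19.4% were lower by 1.5-fold or more. ASNS, asparagine synthetase, read 410.3, 433 and 414 CPM in WT and 133, 136 and 126 CPM in ΔTUT4/7 (-1.67 ± 0.05). ALDH1L2, of mitochondrial folate metabolism, read 319, 328 and 349.7 CPM and 127, 130.4 and 128 CPM (-1.37 ± 0.05). SLC7A11, the cystine transporter, read 213, 239 and 209.5 CPM and 80.4, 78.1 and 80.4 CPM (-1.47 ± 0.05). Each of these log2 fold changes was further from 0 than that of SARS1. ATF4 mRNA was among the 23 (-0.35 ± 0.04), and the 2 genes that rose were ALDH18A1, of proline synthesis (1.10 ± 0.04), and SLC3A2, an amino acid transporter subunit (0.16 ± 0.05).

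The enzymes also fall into 2 structural classes, counted here without EPRS1, which joins one of each and fell. Of 18 class I enzymes, whose active site is a Rossmann fold, 9 rose and 4 fell, with a median of 0.14, and of the 16 class II enzymes reported 10 rose and 3 fell, with a median of 0.24. Among the mitochondrial members 6 rose of 9 in class I and 6 of 7 in class II. Among the cytosolic members 3 rose and 4 fell of 9 in class I, and 4 and 3 of 9 in class II. Beside these counts, 39.2% of all genes averaging at least 50 counts were higher and 31.7% lower.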

How the data were processed

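Total RNA of 6 HEK 293T libraries was depleted of rRNA and sequenced by the authors. Per the labels and the study's methods STAR 2.7.3a placed the read pairs on hg38 and Partek 10.0.22 quantified Ensembl genes by expectation-maximisation. The deposited table holds these estimated counts, of which 45.2% to 50.0% in a library are not whole numbers, so overlapping and similar genes share reads by the model. Read strand is not given in the sources used here. A second deposited table, with the fold changes and p-values of the authors' own comparison, was not used.

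Counts were rounded to whole numbers. Genes whose largest count was above 12 were tested (23952) with edgeR 4.0.16 in R 4.3.3 (TMM, robust quasi-likelihood, group as the only term) and Benjamini-Hochberg adjustment over all of them, called at FDR under 0.05. Adjusted p-values are from this test unless another tool is named. Errors of fold changes are SE, and those of CPM are SD over 3 libraries. Totals of 18757228 to 33148937 counts and a biological coefficient of variation of 6.44% set the precision. On simulated data of 23952 genes for this comparison, 91% of 2-fold and 100% of 4-fold changes were recovered and 0.0968% of unchanged genes were called. The changed genes, 100 at each fold, were drawn from those averaging at least 50 counts, and all others were left unchanged. In the real data 57.7% of genes were called, so these rates need not carry over. Ratios of paired genes used counts plus 0.5 and an exact permutation test over libraries. Alternatives were other scalings, filters and tools (DESeq2 1.42.0, limma 3.58.1), a replicate block, a GC and length offset from GENCODE release 44, subtraction of neighbours and leaving out each library.

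The members and gene lists were chosen with earlier results of these data known. The rule for members finds 39 genes, of which 2 are not reported here and enter no count, median or sum of members. All other members are named, with values in each library for those called at 1.5-fold or more, for pairs called in opposite directions, for the highest per kilobase in each class, for HARS1, HARS2, KARS1 and GARS1, and for the 3 smallest p of the partner and ATF4 lists. The motif and the other partner and ATF4 genes with printed values were chosen after values were seen.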

Additional observations from a re-analysis of the deposited data

How the results depend on the processing

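The counts of cytosolic genes higher (6 to 8) and lower (9 to 11) and of mitochondrial genes higher (9 to 12) stayed within 1.5 times the reported count under all alternatives that give calls, which subtraction of neighbours does not. The count of mitochondrial genes lower, 0 as reported and by DESeq2 and limma, was 2 on library size and with the GC and length offset, 1 with upper-quartile scaling, with the filter at an average of 50 counts and with the replicate block, and 0 to 1 with a library left out (1 without WT replicate 2). The median log2 fold change of the cytosolic genes (-0.06) was -0.18 on library size, -0.16 with upper-quartile scaling, -0.12 with that filter, -0.14 with the offset, -0.28 relative to neighbours and -0.073 to -0.025 with a library left out. That of the mitochondrial genes (0.40) was 0.29, 0.30, 0.34, 0.35, 0.27 and 0.38 to 0.42 in the same order. Library size and upper-quartile scaling moved the median of all genes from -0.02 to -0.13 and -0.12.

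Sign changes were few. IARS2 was -0.11, -0.096 and -0.059 and KARS1 was -0.087, -0.073 and -0.036 under library size, upper-quartile scaling and the higher count filter, where NARS1 was -0.056, -0.041 and -0.0042. With the offset IARS2 was -0.021 and KARS1 -0.057. Leaving out libraries took IARS2 to between -0.017 and 0.019, KARS1 to between -0.0075 and 0.068 and PARS2 to between -0.15 and 0.011. Relative to neighbours CARS2 was -0.39, YARS1 -0.28 and IARS2 -0.038. None of these genes other than CARS2 and YARS1 was called as reported. The cause of these changes was not tested.

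Replicate numbers did not pair the libraries: deviations of same-numbered libraries correlated at r = 0.05, -0.01 and -0.02. With the replicate block the only changed call among the members was VARS2, lower at an adjusted p of 0.0219 in edgeR. With FARSA and FARSB summed, the ratio to FARS2 rose by 0.70 on the log2 scale. The SE was largest for PARS2 (0.11) and FARS2 (0.10), both of low abundance, against 0.04 for IARS1. Abundance did not order the errors throughout. VARS2, at 42.3 CPM in WT, had an SE of 0.09, while MARS2, at 14.7 CPM, had 0.08.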
